A study of Mus musculus with 2 samples.

Results

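The plasminogen activator system of mouse embryo fibroblasts (MEFs) was examined through 7 genes chosen by name: the activators Plau and Plat, the receptor Plaur, the clearance receptor Lrp1 and the serpins Serpine2, Serpinb2 and Serpinf1. They were chosen with earlier results of these data known. All probe sets annotated with one of these symbols alone were taken, which gave 10 of 45037 probe sets and 6 of 18193 genes on the arrays. Serpine2, which encodes protease nexin-1, has no probe set under its own name in the annotation used here, so its signal was not analysed here. The fibroblasts came from day 12.5 embryos that were either Ebp1 knock out, with a gene trap in intron 2 of Pa2g4 (the mouse gene of Ebp1), or wild type. Both were grown in 10% fetal bovine serum, and total RNA was taken at passage 2. Each genotype was measured on 1 array, and the sources used here do not give how many embryos or litters went into a culture. There is therefore no spread between replicates, no test was run, and every ratio compares these 2 arrays.

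Plasmin, the main enzyme that dissolves fibrin, is made from plasminogen by limited cleavage. Urokinase and tissue plasminogen activator are the serine proteases that make this cut, urokinase mostly when bound to its receptor at the cell surface and tissue plasminogen activator mostly on fibrin. Serpins trap the activators in stable complexes, and LRP1, a large endocytic receptor, takes these complexes up. Fibroblasts use the system when they migrate and remodel matrix. Of the serpins chosen, PEDF, the product of Serpinf1, belongs to the family by its fold but does not inhibit proteases.

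The values are MAS5 signals, which are linear fluorescence intensities scaled on each array to a constant target. A gene is described by its brightest probe set, that with the highest mean log2 signal, and signals under 100 intensity units count as low. A gene was counted as higher or lower when its signal reached 500 on at least 1 array and differed by over 2-fold. The median signal was 71.6 on the knock out and 66.5 on the wild type array, and 57.1% of probe sets on the knock out array and 57.9% on the wild type array were under 100. All log2 ratios set knock out over wild type signal. Pa2g4 itself gave 1178 in knock out and 1835 in wild type MEFs (-0.64), and its 5 probe sets had log2 ratios from -0.90 to -0.33. Each of these signals was lower in knock out MEFs but within 2-fold, so the trapped gene is not counted as lower by the rule above. Its brightest probe set stayed over 500 in knock out MEFs. So did another, with 1072 in knock out and 1343 in wild type MEFs (-0.33). In the paper, RT-PCR found no Ebp1 transcript and a Western blot no Ebp1 protein in knock out MEFs. Why array signal remained there was not tested. All 8 fibroblast markers reached 500 on both arrays, with summed signals of 52074 in knock out and 51184 in wild type MEFs and single log2 ratios between -0.67 (Pdgfrb) and 0.39 (S100a4).

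In Ebp1 knock out MEFs the receptor gene Plaur was higher and the activator gene Plat was lower, while the brightest probe sets of Lrp1 and Serpinf1 differed by 1.06-fold and 1.11-fold. Plau and Serpinb2 were under 100 on both arrays. Of the 4 member genes that reached 500, 1 was over 2-fold higher and 1 over 2-fold lower. Among all 5014 genes that reached 500, 0.758% were over 2-fold higher and 1.06% over 2-fold lower, which is 1.81% in either direction. The 4 genes are too few to read a share against this background. The plot of signals by probe set shows all 10 probe sets.

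**Figure D1:**
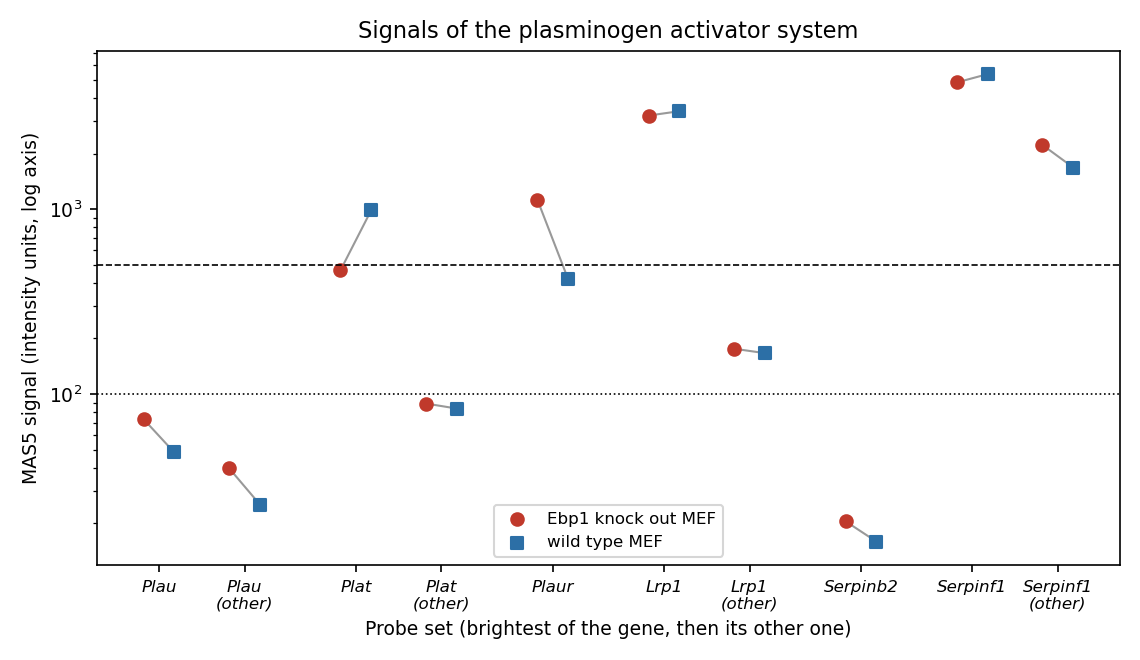
MAS5 signals (intensity units, logarithmic axis) of the 10 probe sets of 6 genes, with Ebp1 knock out MEFs as red circles and wild type MEFs as blue squares, 1 array each, joined by a line for each probe set. The dashed line is at 500 and the dotted line at 100. Plaur is 1128 in knock out and 419 in wild type MEFs, Plat is 467 in knock out and 989 in wild type MEFs on its brightest probe set, and 4 probe sets lie under 100 on both arrays.

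Plat encodes tissue plasminogen activator, the activator best known from vessel walls and the nervous system. Its brightest probe set gave 467 in knock out MEFs and 989 in wild type MEFs (log2 ratio -1.08, 2.12-fold lower in knock out MEFs). The gene thus reached 500 only on the wild type array. Of the 7856 other probe sets that reached 500, 61 (0.776%) had a lower ratio. Among the 3647 probe sets of similar brightness, with a mean log2 signal within 0.5 of that of Plat, 60 (1.65%) were at least as far from equal signal. Plat was chosen with earlier results of these data known, so these shares describe its place and do not test its difference. The other probe set of Plat did not share the difference, with 88.9 in knock out and 83.5 in wild type MEFs, both in the low range. When both probe sets were averaged the log2 ratio was -0.50, so the call of over 2-fold rests on a single probe set. The ratio was over 2-fold lower under each of the other 4 scalings, from -1.47 with spike-in scaling to -1.05 with loess and quantile normalization. Median centring and spike-in scaling lower every ratio, so they could only widen the difference of Plat. The ratio lay just within 2-fold (-0.98) when signals were raised to 500.

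Plau encodes urokinase, the activator that binds the Plaur product. Its probe sets had signals of 73.3 and 39.7 in knock out MEFs and 48.4 and 25.3 in wild type MEFs. All 4 values lie under 100, so no fold is given. Both probe sets are annotated to the same mRNA accession. For scale, 29.9% of the 6589 probe sets as dim as the brighter one differed between the arrays by at least as much.

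Plaur encodes the urokinase receptor, a protein held in the membrane by a lipid anchor that concentrates urokinase at the cell surface and also binds vitronectin. Its single probe set gave 1128 in knock out MEFs and 419 in wild type MEFs (log2 ratio 1.43, 2.70-fold higher in knock out MEFs). It passed 500 on the knock out array and stayed below it on the wild type array. Of the 7856 other probe sets that reached 500, 57 (0.726%) had a higher ratio, and 26 of the 3628 probe sets of similar brightness (0.717%) were at least as far from equal signal. As for Plat, these shares describe the place of a gene chosen with earlier results known and do not test its difference. The difference stayed over 2-fold under every scaling tried, from 1.04 with spike-in scaling to 1.47 with loess. It was 1.17 with signals raised to 500. No second probe set carries the symbol alone, so the difference has no check on another part of the transcript.

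Macrophages and endothelial cells also use the urokinase receptor, and the markers of both are given here beside it. Of 6 macrophage markers none reached 500 on either array, with a summed signal of 886 in knock out and 995 in wild type MEFs. The brightest of them were Csf1r, the receptor of a macrophage growth factor, at 385 in knock out and 366 in wild type MEFs, the lysozyme gene Lyz2 at 235 in knock out and 357 in wild type MEFs, and Adgre1 at 154 in knock out and 146 in wild type MEFs. The other 3, with the pan-leukocyte gene Ptprc among them, were under 100 on both arrays, and the lowest was Itgam at 6.58 in knock out and 3.10 in wild type MEFs. The 5 endothelial markers summed to 279 in knock out and 241 in wild type MEFs. Kdr, a VEGF receptor gene, was the highest with 156 in knock out and 101 in wild type MEFs, and the other 4 were under 100 on both arrays, Pecam1 being the lowest with 9.97 in knock out and 12.2 in wild type MEFs. The 5 epithelial markers summed to 1759 in knock out and 436 in wild type MEFs, and each of the 5 had the higher signal in knock out MEFs. Epcam gave 1350.5 in knock out and 174 in wild type MEFs and the keratin gene Krt19 gave 197 in knock out and 88.0 in wild type MEFs, while the other 3 were under 100 on both arrays. No marker of skeletal muscle, neural cells, mast cells or erythroid cells reached 500. The neural markers summed to 662 in knock out and 578 in wild type MEFs, most of it from Nes, an intermediate filament gene of progenitor cells, at 470.5 in knock out and 344 in wild type MEFs. The sums were 208 in knock out and 169 in wild type MEFs for skeletal muscle, 128 in knock out and 63.3 in wild type MEFs for mast cells, and 19.2 in knock out and 36.3 in wild type MEFs for erythroid cells. The part of any of these cells in the difference of Plaur or Plat was not tested. In RNA from a whole culture, fewer cells of a type and less RNA per cell cannot be told apart.

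**Figure D2:**
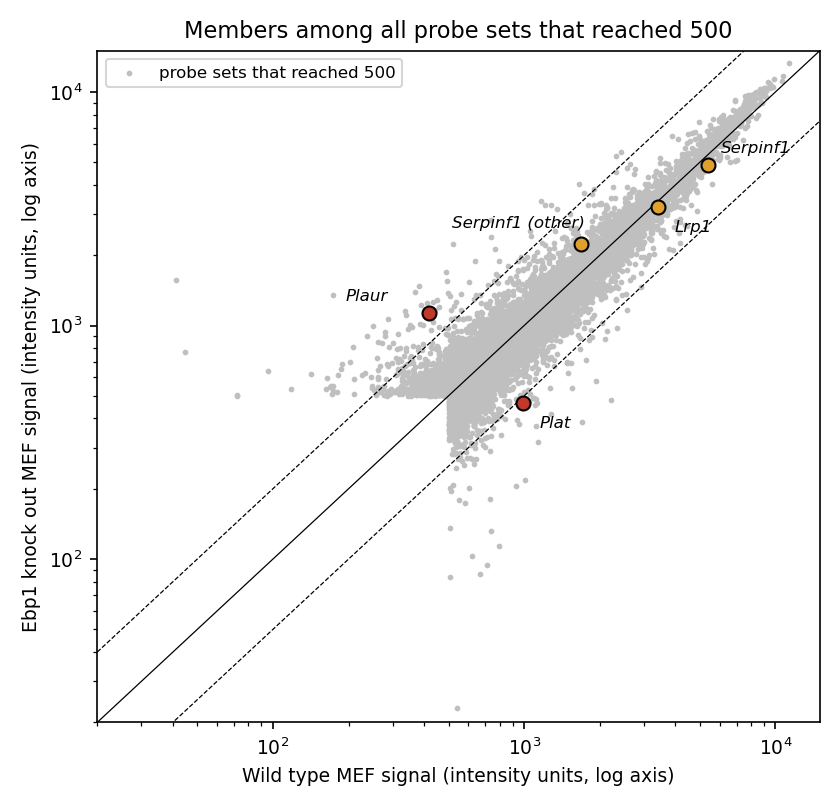
Signals of the 7857 probe sets that reached 500 on at least 1 array, Ebp1 knock out MEFs on the vertical and wild type MEFs on the horizontal axis, in intensity units on logarithmic axes. Dashed lines mark a 2-fold ratio. Plaur lies above and Plat below these lines (red), while Lrp1 and both probe sets of Serpinf1 lie between them (orange).

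Promoter windows from RefSeq (build GRCm38.p6, from 250 bases before to 50 bases after a transcript's start) were given for 5 of the 7 genes and were searched on both strands for short motifs. The starts used for Lrp1, Serpinf1 and Serpine2 are those of the annotated gene. That of Plaur lies 1546 bases downstream of the annotated start of the gene, and the 2 of Serpinb2 lie 10531 and 10618 bases downstream, so the windows of these genes belong to starts inside the annotated gene. The motif of AP-1, a transcription factor of the Fos and Jun families, is TGANTCA and reads the same on both strands. It is shown because Plaur is the gene that was higher and its window holds the motif once, 69 bases before the transcript start used. Serpinb2, which was under 100 on both arrays, holds the AP-1 motif as well, together with a TATA box (TATAAA). Capitals mark the motif.
Plaur, AP-1, chr7:24462403-24462432, plus strand: acccctggagcTGACTCActctttagcaaa
Serpinb2, AP-1, chr1:107511318-107511347, plus strand: gagtaaaatgtTGAATCAtacaaagaatac
Serpinb2, TATA box, chr1:107511383-107511411, plus strand: gggcagagtctTATAAAaccagtcattac
The AP-1 motif was found in 7.81% and the TATA box in 13.6% of 32851 windows. The Serpinb2 windows are a pair that overlap and share both sites. The GC box (GGGCGG) occurs in 35.7% of windows, and the window of Serpine2 holds it 6 times, that of Plaur 3 times and that of Lrp1 once, with some of these matches overlapping. The windows of Lrp1, Serpinf1 and Serpine2 hold neither the AP-1 motif nor the TATA box, and none of the 5 genes has the CRE motif TGACGTCA (1.79% of windows). A loose pattern for NF-kB is in 50.8% of windows, those of Plaur and Serpine2 among them, and the E-box CANNTG is in 72.3%, with 4 matches in that of Serpinf1 and 1 in that of Serpine2. These matches describe the letters only, and no binding was measured.

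Lrp1 encodes the LDL receptor-related protein that internalizes complexes of activators and serpins and also the urokinase receptor with them. Its brightest probe set gave 3214 in knock out MEFs and 3393 in wild type MEFs (log2 ratio -0.08), and 70.4% of the 856 probe sets of similar brightness differed by at least as much. The other probe set gave 176 in knock out and 167 in wild type MEFs (log2 ratio 0.08). Both probe sets thus lay 1.06-fold from equal signal, on opposite sides of it. The mean over both was 0.00.

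Serpinf1 encodes the pigment epithelium-derived factor PEDF, a secreted serpin that restrains vessel growth. Both of its probe sets reached 500 on both arrays. The brightest had 4855 in knock out MEFs and 5384 in wild type MEFs (log2 ratio -0.15), and the other had 2229 in knock out MEFs and 1682 in wild type MEFs (log2 ratio 0.41). The probe sets disagree in sign, and no direction is given for the gene. The second one, which was the larger of these differences, was matched or exceeded by 14.2% of the 1515 probe sets of similar brightness.

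Serpinb2 encodes PAI-2, an inhibitor of urokinase that stays mostly inside cells and is known from activated macrophages and keratinocytes. Its single probe set gave 20.5 in knock out MEFs and 15.9 in wild type MEFs. Both values are low, and no fold is given.

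**Figure D3:**
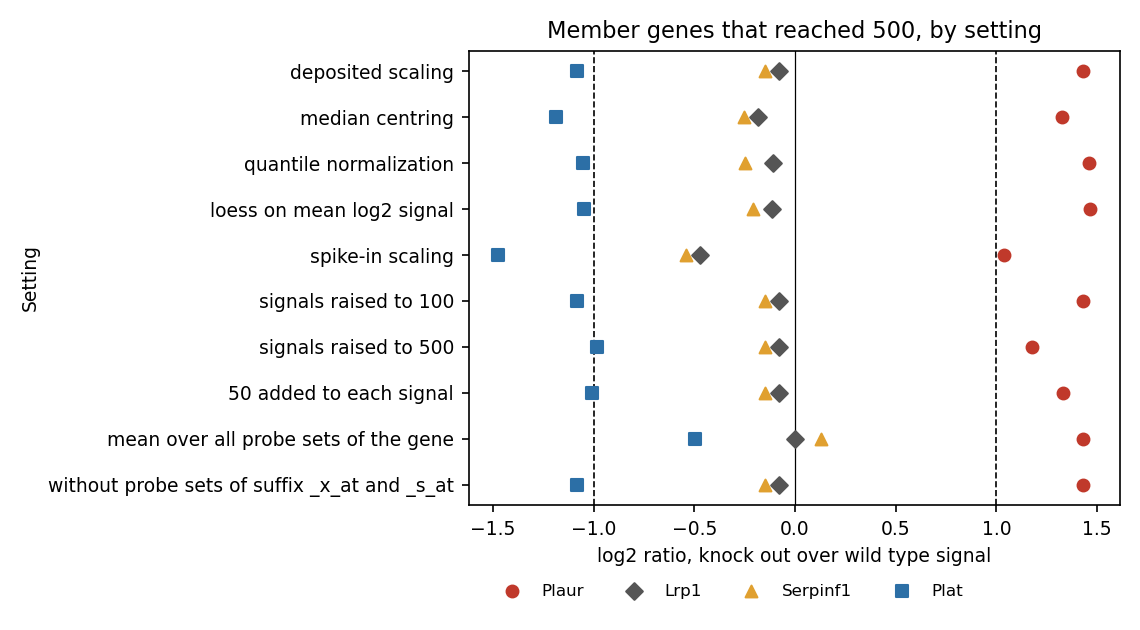
Log2 ratios (knock out over wild type) of the 4 member genes that reached 500, under the deposited scaling and 9 alternatives. Dashed lines mark 2-fold. Plaur stays beyond 2-fold in each setting, Plat is within 2-fold with signals raised to 500 (-0.98) and with the mean over all probe sets (-0.50), and Lrp1 and Serpinf1 lie near 0 except with spike-in scaling, which lowers every ratio by 0.39.

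Wider lists of the system were counted in the same way. Of 80 genes in 5 lists, 71 had a probe set and 22 reached 500, of which 1 was higher and none was lower by over 2-fold, against 0.758% and 1.06% of all genes that reached 500. Median centring lowered all log2 ratios by 0.11 and spike-in scaling by 0.39, so small ratios near 0 have no settled sign.

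Plasminogen and its binding proteins at the cell surface had 9 of 15 genes at 500 or more, none over 2-fold apart, with a median log2 ratio of -0.02. The median of all genes that reached 500 was -0.05. Plg, the plasminogen gene of liver, which is given for its role and not for its level, was 7.34 in knock out and 7.03 in wild type MEFs, so message for the zymogen was low on both arrays. Anxa2 and S100a10 encode the subunits of a complex that binds plasminogen and tissue plasminogen activator. Anxa2 was 7272 in knock out and 6661 in wild type MEFs (log2 ratio 0.13) and S100a10 was 4969 in knock out and 4810 in wild type MEFs (0.05). Itgav, the integrin chain of vitronectin receptors, was 5543 in knock out and 5614 in wild type MEFs (-0.02). Averaging its 5 probe sets, of which 3 were under 100 on both arrays, gave -0.78. The signs of Anxa2 and S100a10 turned negative with quantile normalization and with spike-in scaling, and that of S100a10 also with median centring and loess.

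Of the other serpins, 3 of 20 genes reached 500. Serpinb9b, a mouse relative of the granzyme B inhibitor gene Serpinb9, was the gene over 2-fold apart, with 547 in knock out MEFs and 263 in wild type MEFs (log2 ratio 1.06). It fell within 2-fold with median centring (0.95), with spike-in scaling (0.67) and with 50 added to each signal (0.93), and was 0.13 with signals raised to 500. Serpinh1, the collagen chaperone HSP47, which is a serpin without inhibitory activity, was 7395 in knock out and 6799 in wild type MEFs (0.12). Serpinb6a, an intracellular serpin, was 3563 in knock out and 3170 in wild type MEFs (0.17). Both were below 0 with spike-in scaling, and Serpinh1 also with quantile normalization. The plasmin inhibitor gene Serpinf2, named after its values were seen, was 113 in knock out and 117 in wild type MEFs.

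The next list held other genes of the LDL receptor family, to which Lrp1 belongs, and the chaperone gene Lrpap1. All 4 genes that reached 500 of 12 listed had lower signals in knock out MEFs, within 2-fold as deposited. Their median log2 ratio was -0.60. Of all 5014 genes, 57.8% were below 0. Lrpap1 encodes RAP, the chaperone that keeps ligands off LRP1 on its way to the surface, and was 1419 in knock out and 2198 in wild type MEFs (-0.63). Each of its 4 probe sets was lower, the least at -0.28. Lrp6, a Wnt co-receptor, was 1085 in knock out and 1604 in wild type MEFs (-0.56), and Lrp10 was 1193 in knock out and 1614 in wild type MEFs (-0.44). The fourth, Vldlr, a lipoprotein receptor that also takes up activator and serpin complexes, was 512 in knock out and 811 in wild type MEFs (-0.66) and is named after its values were seen. Its other 5 probe sets were dimmer and differed in sign. The brightest of them had 218 in knock out and 301 in wild type MEFs (-0.47). The one that was higher in knock out MEFs and over 100 there had 121 in knock out and 94.2 in wild type MEFs. These 4 genes were below 0 under each of the 5 scalings, and the median of the list ranged from -0.99 to -0.58 while that of all genes ranged from -0.44 to -0.04. Median centring and spike-in scaling lower every ratio, so they could not have changed these signs. The 4 genes are too few to read a share against the background. Lrp1 itself, at -0.08, lay nearer to the median of all genes.

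Among coagulation genes and protease-activated receptors 3 of 18 reached 500, none over 2-fold apart. F2r, the thrombin receptor PAR1, was 4660 in knock out and 5374 in wild type MEFs (-0.21). F3, which encodes tissue factor, was 963 in knock out and 1306 in wild type MEFs (-0.44), and Thbd, which encodes thrombomodulin, was 1549 in knock out and 1378 in wild type MEFs (0.17, below 0 with spike-in scaling). Of other serine proteases of the surface and matrix 3 of 15 reached 500, again none over 2-fold apart. Prss23 was 5549 in knock out and 5516 in wild type MEFs (0.01, below 0 under the other 4 scalings), Htra1, a protease that cleaves matrix proteins, was 2227 in knock out and 2622 in wild type MEFs (-0.24), and Furin, the proprotein convertase, was 861 in knock out and 941 in wild type MEFs (-0.13).

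**Figure D4:**
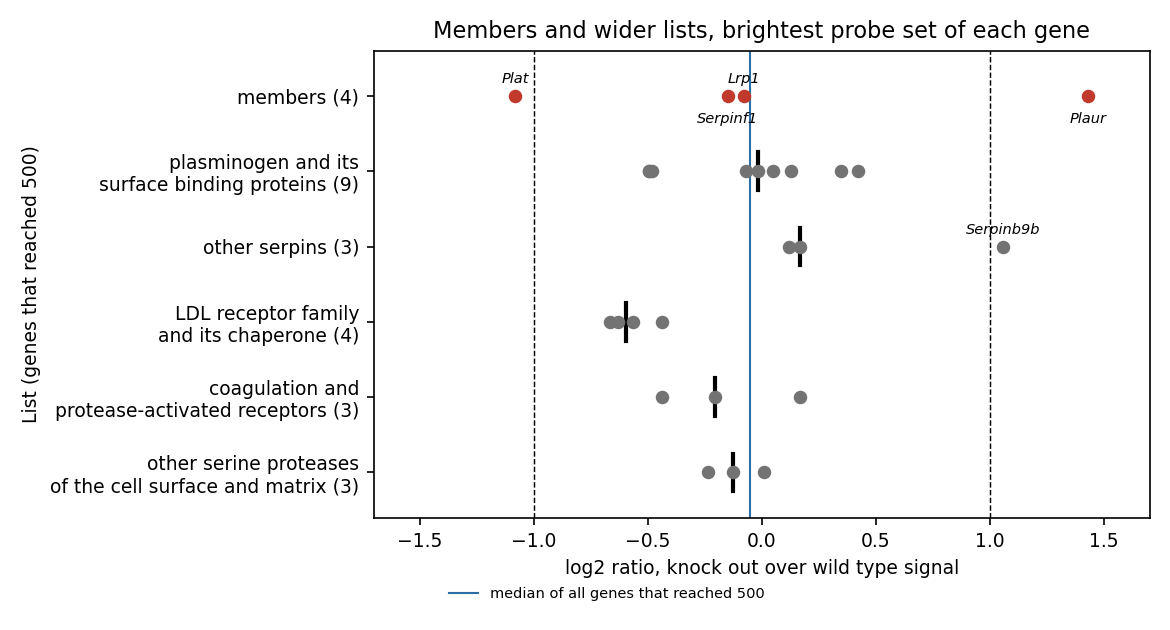
Log2 ratios (knock out over wild type) on the brightest probe set of each gene that reached 500, in the members (red) and in 5 wider lists (grey), with the number of genes in parentheses. Black bars are list medians, the blue line is the median of all genes that reached 500 (-0.05) and dashed lines mark 2-fold. Plaur, Plat and Serpinb9b lie beyond 2-fold, and the 4 genes of the list of the LDL receptor family and its chaperone lie between -0.66 and -0.44.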

How the data were processed

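RNA from MEFs of each genotype was hybridized to 1 Affymetrix array. The deposited values are linear signal intensities: the authors used MAS5 and brought each array to the same target intensity. The probe sets belong to a mouse array, and the accompanying platform annotation gave 1 symbol for 34945, several for 932 and none for 9160 of 45037 probe sets. The 64 control probe sets were left out. Symbols were updated to RefSeq GRCm38.p6 through Entrez identifiers (34741 matched). Log2 ratios are knock out over wild type. The minimum of 500 and the 2-fold threshold follow the study's methods, without their p-value. With 1 array per genotype no test was possible, and the number of arrays limits precision.

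The members and lists were chosen with earlier results of these data known. Genes named are all members, Pa2g4, and of each list the genes over 2-fold apart at 500 or more and up to 3 of the brightest others, with markers by their lowest and highest. Other names fall outside this rule: Plg was given for its role, and further markers, Serpinf2, Vldlr and the genes of the closing section after their values were seen. The comparison with probe sets of similar brightness was added after seeing the data. Steps were tested on simulated data, with effects only in genes at 500 or more on both arrays. The simulated noise was smaller than the spread of ratios seen here. That test checks the code and does not bear on the calls made here. Alternatives were median centring, quantile normalization, loess (fraction 0.3), scaling to 9 spike-in probe sets, signals raised to 100 or 500, 50 added, other minimums and thresholds, and other choices of probe set. Tables were computed with pandas 2.3.3 and numpy 2.4.6 under Python 3.11.15, loess with statsmodels 0.14.6 and plots with matplotlib 3.10.9.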

Additional observations from a re-analysis of the deposited data

How the results depend on the processing

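No paired analysis was possible because each genotype has a single array. Log2 ratios that shifted by more than 1.5-fold, and counts that changed by more than 1.5 times, are called moved. Of 54 values of single members under the alternatives 3 moved. Averaging all probe sets of a gene gave -0.50 for Plat, and Plau, from 0.60 between signals under 100, became 0 with signals raised to 100 or 500, by construction. Signs changed for Serpinb2 (-0.03, spike-in scaling), Lrp1 (0.00) and Serpinf1 (0.13, both when probe sets were averaged). Of 143 values of Pa2g4 and the named genes of the wider lists 2 moved, Itgav to -0.78 with averaged probe sets and Serpinb9b to 0.13 with signals raised to 500. The count of 2 member genes over 2-fold was 1, Plaur alone, with signals raised to 500, averaged probe sets and a minimum of 1000, and 0 with 500 on both arrays and at a threshold of 3-fold. The count of 1 over the wider lists was 0 with median centring, signals raised to 500, 50 added, a minimum of 1000, 500 on both arrays and 3-fold. It was 2 with spike-in scaling (both lower), 4 with a minimum of 100, 8 with no minimum and 3 at 1.5-fold. With other minimums and thresholds the counts change by construction. Median centring and spike-in scaling subtract a constant from every ratio, and raised or added signals pull ratios toward 0, also by construction. Averaging mixes probe sets that differ, and why they differ was not tested. Dim probe sets give imprecise ratios, with an SD of log2 ratios of 1.12 for mean signals under 100 and 0.44 among those that reached 500.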

Other observations

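Some genes of the wider lists stayed under 500 on both arrays but differed in signal, and they are named after their values were seen. Fap, which encodes a surface serine protease of activated fibroblasts that also cleaves the main plasmin inhibitor, was 155 in knock out and 409 in wild type MEFs (log2 ratio -1.40). Klk8, a secreted kallikrein, was 231 in knock out and 95.0 in wild type MEFs, at least 2.31-fold higher with the low signal set to 100. Serpinb8, an intracellular serpin whose human counterpart inhibits furin, was 198 in knock out and 56.9 in wild type MEFs, which bounds the fold at no less than 1.98, so a difference of over 2-fold is not shown. Its dimmer probe set had 68.9 in knock out and 21.8 in wild type MEFs. Of probe sets of similar brightness, 1.49% for Fap, 2.55% for Klk8 and 1.13% for the brightest of Serpinb8 were at least as far from equal signal. The genes were picked by their difference, so these shares do not test it.

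The following 2 genes of the same lists were also named after their values were seen. Itgb1, the integrin chain that pairs with many alpha chains and associates with the urokinase receptor, had 6 probe sets that differed in ratio. Those under 100 on both arrays also differed in sign. A probe set with 618 in knock out and 142 in wild type MEFs had a log2 ratio of 2.12, whereas the brightest, at 3705 in knock out and 2910 in wild type MEFs, gave 0.35 and another, at 3833 in knock out and 2700 in wild type MEFs, gave 0.51. Mrc2, the collagen receptor that forms a complex with urokinase and its receptor, was 1254 in knock out and 1767 in wild type MEFs (-0.49) on its brightest probe set, and 189 in knock out and 87.4 in wild type MEFs on its other one.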
